A study of Mus musculus with 4 samples.

Results

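The immediate early AP-1 and EGR genes followed here are the 10 genes Fos, Fosb, Jun, Junb, Jund, Egr1, Egr2, Egr3, Atf3 and Ier2, chosen by their gene names in both deposited count tables. All 10 were found, and all 10 were among the 13811 genes tested, which are protein-coding and reach 10 counts in the sum of the 4 libraries, out of 54532 genes that the tables share. The RNA came from primary microglia of the CD1 mouse strain, the resident macrophages of the brain, which the study grew in mixed glial culture from newborn male pups with GM-CSF and separated from the astrocyte layer by trypsin. The EGCG group received 1 µM epigallocatechin gallate, a flavan-3-ol of green tea, in serum-free medium for 24 h, and the vehicle group received the matching amount of DMSO, its solvent, for the same time in the same medium. In the study that medium contained IL-34, TGFβ2, GM-CSF and cholesterol. Each group had 2 libraries, numbered as biological replicates 1 and 2, and the labels name no other treatment in either group. The question was therefore which of these genes differed in microglia that had been in EGCG for 24 h, a time long after the early peak for which this gene class is known.

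AP-1 is a dimer of basic leucine zipper proteins. The Fos proteins bind DNA only together with a partner such as a Jun protein, whereas the Jun proteins can also pair with each other. The EGR proteins are zinc finger factors that bind GC-rich sites. In most cells the genes of both families are switched on within minutes of a growth factor, cytokine or stress signal, without new protein synthesis, through MAP kinases acting on factors already bound to their promoters, and their mRNAs are as quickly removed. In microglia and other macrophages they are known for their rise after Toll-like receptor ligands, growth factors and handling of the cells.

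The 4 libraries held between 33805071 and 54970300 counts, and the EGCG library of replicate 2 held 1.51 times the counts of its vehicle. Between 98.0% and 98.1% of the counts on shared genes fell on protein-coding genes. All 10 microglia markers of the list used, from Itgam to Fcrls, had counts in every library, with summed levels of 5834 to 8914 CPM (counts scaled to a library of 1000000, with effective library sizes by edgeR's trimmed mean of M-values). The 7 astrocyte markers summed to between 13.9 and 19.8 CPM, most of it Aldh1l1. The EGCG library of replicate 1 stood apart in markers of other cells. It held the lowest level of 5 of the 7 astrocyte markers, among them Gja1, with 160 counts in the vehicle and 1 in the EGCG library of replicate 1 (66 and 107 counts in replicate 2), and Aqp4, with 20 counts and none (5 and 12). It also held the lowest level of 7 of the 8 stromal cell markers, among them Eln, which had few counts in both libraries of replicate 2 as well. The stromal sum was 708 CPM in the vehicle and 255 CPM in the EGCG library of replicate 1, against 331 and 342 CPM in replicate 2. Without Postn, which did not share this, the sums were 455 and 1.44 CPM in replicate 1 and 160 and 177 CPM in replicate 2. In bulk RNA, fewer cells of a type and less RNA per cell cannot be told apart.

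The members have few introns, as the class is known for. Jun, Junb, Jund and Ier2 have a single exon in their longest coding transcript in GENCODE, the EGR genes have 2, and Fos, Fosb and Atf3 have 4. The median over the 13737 tested genes with such a transcript was 9 exons, and 3.06% of them had a single one. RefSeq promoter windows were given for 7 of the 10, all but Egr1, Egr3 and Ier2. The 250 bases ahead of the RefSeq start site are printed 5′ to 3′ for Fos and Egr2 because these members differed most between the replicates, in opposite directions. Both windows are in build GRCm38.p6 on the plus strand, the Fos window at chr12:85473640-85473889 and the Egr2 window at chr10:67537619-67537868. The Egr2 window also lies in an intron of longer Egr2 transcripts that start further upstream. Among the windows not printed, those of Fosb and Atf3 overlap an exon of their own gene. That of Atf3 also lies in an intron of another Atf3 transcript. Capitals mark a TATA box in Fos and a CArG box, the site of serum response factor, in Egr2.
Fos: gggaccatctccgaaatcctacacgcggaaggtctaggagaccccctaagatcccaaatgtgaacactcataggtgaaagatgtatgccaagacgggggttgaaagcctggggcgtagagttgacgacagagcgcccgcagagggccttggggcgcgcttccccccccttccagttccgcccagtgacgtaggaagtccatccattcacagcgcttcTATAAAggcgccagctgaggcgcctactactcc
Egr2: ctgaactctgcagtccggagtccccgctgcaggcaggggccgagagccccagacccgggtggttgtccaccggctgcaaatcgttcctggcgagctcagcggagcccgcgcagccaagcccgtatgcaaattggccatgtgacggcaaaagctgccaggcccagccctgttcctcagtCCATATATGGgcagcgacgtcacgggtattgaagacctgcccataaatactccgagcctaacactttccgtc
The TATA box (TATAAA) of Fos began at base -33, where -1 is the base just ahead of the start site, and such a match occurred in 12.4% of 32851 promoter windows of this length in the RefSeq table. The CArG box of Egr2 began at base -72, and 1.47% of the windows held that motif. Of the 7 windows, 1 held a CArG box, 1 a TATA box, 1 an EGR site (GCGNGGGCG, in Fosb, in 4.70% of all windows) and 4 a GC box (GGGCGG, in 32.7%), and none held an AP-1 site (TGANTCA, in 6.75%) or a full cAMP response element (TGACGTCA, in 1.55%). Both strands were searched, and a GC box can share bases with an EGR site. Only exact matches were counted. Letters close to the cAMP response element, such as TGACATCA in the Jun window and TTACGTCA in the Atf3 window, were left out. The Jund window, which held none of these motifs, lies 1210 bases from the start of the coding transcript of Jund in GENCODE, while those of the other 6 lie within 30 bases of it. A match is a description of the letters and shows no binding. Sites further upstream than these windows were not searched, so a motif absent from a window can still lie near the gene.

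A further feature the selection did not use is the AU-rich element of the 3′ untranslated region, which in this gene class is known to mark the mRNA for rapid decay. The pentamer ATTTA occurred in the 3′ untranslated region of 9 of the 10 members, all but Ier2, and of 65.2% of 13495 tested genes with such a region. The longer form TATTTAT occurred in 5 members and in 27.2% of those genes. Fos held 4 pentamers in 815 bases, Egr3 held 7 in 2645 bases, and Fosb held 1 in 2145 bases. The median density was 2.51 pentamers per kilobase in the members and 1.18 in all genes. The stretch of 30 bases around the longer form is shown, with ATTTA in capitals, for Fos, where 2 pentamers overlap, and for Fosb and Atf3, which each have 1 there. They are the RNA-strand sequences of the coding transcripts at chr12:85477103-85477132 (plus strand), chr7:19303325-19303354 (minus strand) and chr1:191170337-191170366 (minus strand).
Fos: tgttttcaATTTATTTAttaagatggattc
Fosb: ccacccccagctATTTAtccctttcctggt
Atf3: aaaatattacttATTTAtcccagtattcct

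Levels were compared between genes per length, as RPKM, the CPM divided by the gene length in kilobases. Atf3, a repressor of the ATF/CREB family that is induced by stress, was the member with the highest level in every library, with 194 and 215 RPKM in the vehicle and EGCG libraries of replicate 1 and 145 and 163 RPKM in those of replicate 2. Its mean of 179 RPKM placed it 209th among the 13811 genes tested, in the top 1.51%. Jund followed with 109 RPKM (range 96.0 to 122), then Junb with 81.1 RPKM (79.8 to 82.1). The ranges over the 4 libraries of the next genes overlapped from neighbour to neighbour, although those of Egr2 and Jun lay above that of Ier2. These were Egr2 at 40.1 RPKM (15.4 to 66.2), Jun at 33.1 RPKM (27.1 to 38.2), Fos at 25.5 RPKM (10.1 to 41.3) and Ier2 at 13.3 RPKM (11.97 to 14.60). Egr1 was lower, at 3.05 RPKM (2.43 to 3.44). Fosb at 0.269 RPKM (0.0550 to 0.522) and Egr3 at 0.215 RPKM (0.120 to 0.300) were the lowest, and their ranges overlapped. Egr1, Fosb and Egr3 ranked 7799th, 11294th and 11509th, so that these members lay below the middle of the genes tested while the other 7 lay in the top 24.3%. The smallest count of any member in any library was 11, for Fosb.

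**Figure D1:**
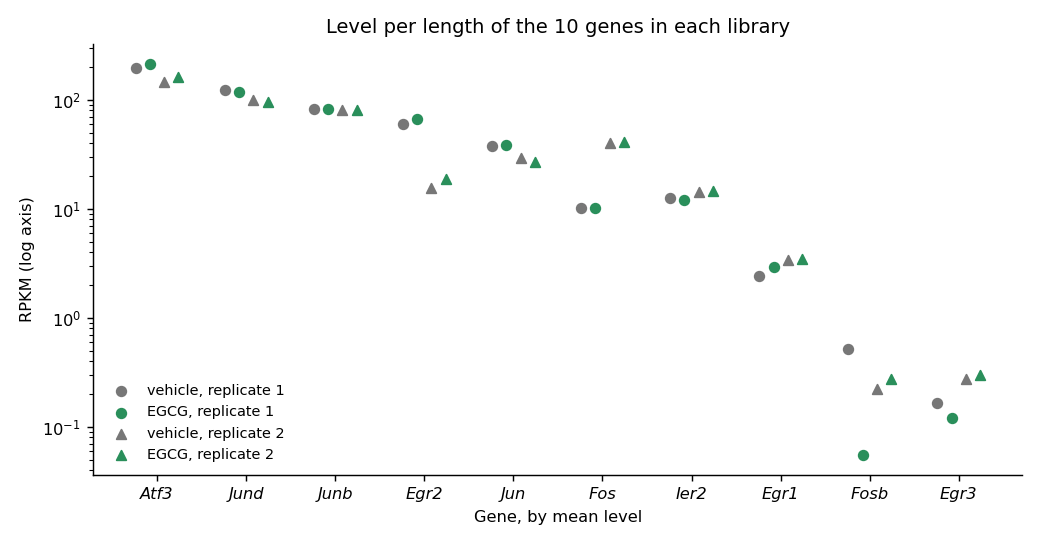
Level per length (RPKM, log axis) of each of the 10 genes, ordered by their mean over 4 libraries; grey marks vehicle, green EGCG, circles replicate 1 and triangles replicate 2. Atf3 lies highest at 145 to 215 RPKM, Egr2 and Fos separate by replicate in opposite directions, and 1 EGCG library holds Fosb at 0.0550 RPKM.

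Within the families the leading gene was the same in every library, but its share was not. Among the Jun genes, Jund supplied 50.4% and 49.3% of the summed RPKM in the vehicle and EGCG libraries of replicate 1 and 47.6% and 47.3% in those of replicate 2. Junb supplied 34.0% to 39.3% and Jun itself 13.4% to 16.1%. The sum of the family was 203 to 241 RPKM. Among the Fos genes, taken with Fosl1 and Fosl2, Fos supplied 54.5% and 61.3% in replicate 1 and 78.3% and 80.1% in replicate 2. Fosl2, a Fos-related partner of Jun with a longer-lived induction, supplied 35.2% and 32.0% in replicate 1 and 20.0% and 17.9% in replicate 2. The Fos family summed to 18.7 and 16.5 RPKM in replicate 1 and to 51.3 and 51.6 RPKM in replicate 2, below the Jun family in every library. Among the EGR genes, Egr2 supplied 95.8% and 95.6% in replicate 1 and 80.7% and 83.5% in replicate 2, with Egr1 taking most of the rest. Egr4 had no count in any library. The shares thus moved between replicates by more than between treatments, other than for Fosb, whose share was 2.79% in the vehicle and 0.334% in the EGCG library of replicate 1, and 0.435% and 0.535% in replicate 2.

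**Figure D2:**
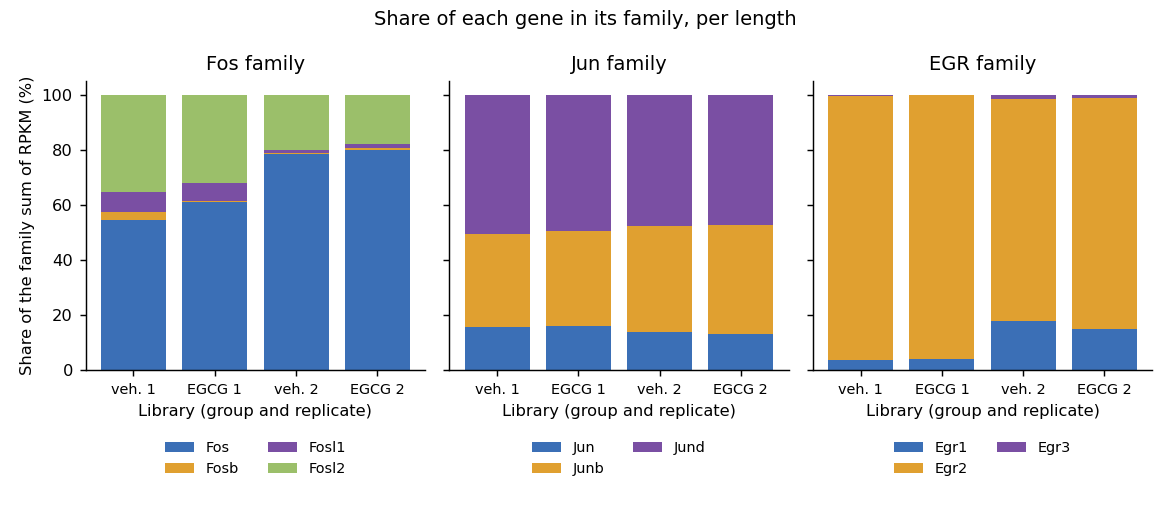
Stacked bars of the share (percent) of each gene in the summed RPKM of its family, for the 4 libraries named by group and replicate number, with the Fos family on the left, the Jun family in the middle and the EGR family on the right. Fos holds 54.5% to 61.3% of its family in replicate 1 and 78.3% to 80.1% in replicate 2.

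None of the 10 genes passed a threshold between EGCG and vehicle in the fit of 2 against 2 libraries on treatment alone. That fit leaves out the pairing by replicate number, so differences between replicates enter its spread. It can therefore miss a small change shared by both replicates. Values with the replicate number as a block are given with the genes below. In the two-sided quasi-likelihood test of edgeR, with Benjamini-Hochberg adjustment over all genes tested, every member had an adjusted p of 1.00, and the smallest unadjusted p was 0.299, for Fosb. No member passed an unadjusted p of 0.05, as 0.116% of all genes tested did (16 genes), and no member passed an adjusted p of 0.1, as 0% of all genes did. DESeq2 with treatment only likewise gave no member at either threshold. The groups overlapped in CPM for all 10, and did not overlap for 11.9% of all genes tested. The values of the libraries show where the spread lay.

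Fos and Fosb encode the partners that need a Jun protein. Fos (ENSMUSG00000021250, chr12:85473890-85477273) was at 24.0 CPM in the vehicle and 23.7 CPM in the EGCG library of replicate 1, and at 94.5 and 97.2 CPM in replicate 2. The libraries of a replicate differed by less than counting error while the replicates were far apart, so the group means of 59.3 ± 49.8 CPM (SD, n = 2) for vehicle and 60.5 ± 51.9 CPM for EGCG carried SDs almost as large as themselves. Within the replicates the log2 ratio of EGCG to vehicle was -0.02 (exact 95% interval for counting error -0.16 to 0.13) and 0.04 (-0.02 to 0.10). Fosb (ENSMUSG00000003545, chr7:19302696-19310051) was at 3.26 and 0.343 CPM in replicate 1, from 107 and 11 counts, and at 1.39 and 1.72 CPM in replicate 2, from 51 and 95 counts. It was thus lower with EGCG in replicate 1, by a log2 ratio of -3.25 (-4.29 to -2.35), and not distinguishable within counting error in replicate 2, at 0.31 (-0.20 to 0.83). The edgeR log2 fold change of Fosb was -1.15 (SE 0.96). It was -0.42 without the vehicle library and -0.44 without the EGCG library of replicate 1, and -2.78 without the EGCG library of replicate 2.

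The Jun genes encode the usual partners of the Fos proteins. Jun (ENSMUSG00000052684, chr4:95049034-95052222) was at 120 and 122 CPM in the vehicle and EGCG libraries of replicate 1 and at 93.2 and 86.4 CPM in replicate 2. Junb (ENSMUSG00000052837, chr8:84974484-84978718), often an antagonist of Jun on shared targets, was the most even member, at 188.8, 188.9, 185.0 and 183.6 CPM in the same order of libraries. Jund (ENSMUSG00000071076, chr8:70698949-70700616), the most constitutive Jun gene, was at 203 and 195 CPM in replicate 1 and at 166 and 160 CPM in replicate 2. Jund was lower with EGCG within both replicates by little more than counting error, at a log2 ratio of -0.06 (exact 95% counting interval -0.11 to -0.01) and -0.05 (-0.10 to -0.0035). Jun was at 0.02 (-0.05 to 0.08) in replicate 1 and lower beyond counting error in replicate 2, at -0.11 (-0.17 to -0.05). The Junb intervals of -0.05 to 0.05 and -0.06 to 0.03 both included 0. The fitted log2 fold changes were -0.04 (SE 0.25) for Jun, -0.01 (SE 0.13) for Junb and -0.05 (SE 0.19) for Jund. With the replicate number in the fit the 95% interval of the Junb ratio of EGCG to vehicle ran from 0.917 to 1.08, that of Jund from 0.886 to 1.05 and that of Jun from 0.876 to 1.07. These genes overlap others on the opposite strand, Jun with Junos over 689 bases (44 to 85 counts a library), Jund with Gm11175 over 919 bases (460 to 603 counts) and Junb with Prdx2 over 351 bases (4174 to 6699 counts, near the 6052 to 10129 counts of Junb itself). The libraries were directional, but whether the counting used strand is not given in the sources used here.

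Egr2 and Atf3 stood higher with EGCG in both replicates beyond counting error. Jund stood lower by a small margin and did not pass with the replicate block (unadjusted p = 0.303 by edgeR). Counting intervals cover no other spread and are narrow at high counts. The share of all genes tested that lay outside them in both replicates was not counted. Egr2 (ENSMUSG00000037868, chr10:67535475-67542188), known from myelinating glia and from macrophages, was at 203 CPM in the vehicle and 225 CPM in the EGCG library of replicate 1 and at 52.3 and 64.4 CPM in replicate 2. It was higher with EGCG within both replicates, by a log2 ratio of 0.15 (exact 95% counting interval 0.10 to 0.20) and 0.30 (0.22 to 0.38). Atf3 (ENSMUSG00000026628, chr1:191170296-191218039) was at 418 and 463 CPM in replicate 1 and at 313 and 352 CPM in replicate 2. It too was higher with EGCG within both, by 0.15 (0.11 to 0.18) and 0.17 (0.14 to 0.20) on the log2 scale. Without the replicate number these differences lay within the spread, with log2 fold changes of 0.18 (SE 0.93) for Egr2 and 0.16 (SE 0.25) for Atf3. With the replicate number as a block, edgeR gave 0.22 (SE 0.059, unadjusted p = 0.0118) for Egr2 and 0.16 (SE 0.051, unadjusted p = 0.0246) for Atf3, ratios of EGCG to vehicle with 95% intervals of 1.05 to 1.29 and 1.02 to 1.22. DESeq2 with the block gave unadjusted p values of 0.0208 and 0.0335. The adjusted p with the block was 0.995 for both in edgeR and 1.00 for both in DESeq2, so neither was called. These 2 members were the ones past an unadjusted p of 0.05 with the block, both higher with EGCG, where 2.12% of all genes tested passed in that direction and 1.09% in the other, and an adjusted p of 0.1 was passed by 0.00724% of genes and no member.

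Egr1 (ENSMUSG00000038418, chr18:34859823-34864984), the EGR gene most often used as a sign of recent stimulation, was at 10.9 and 13.2 CPM in replicate 1 and at 15.2 and 15.4 CPM in replicate 2. Its log2 ratio of EGCG to vehicle was 0.28 (exact 95% counting interval 0.07 to 0.48) in replicate 1 and 0.02 (-0.14 to 0.17) in replicate 2. Egr3 (ENSMUSG00000033730, chr14:70077203-70082614) was at 0.731 and 0.531 CPM in replicate 1, from 24 and 17 counts, and at 1.20 and 1.32 CPM in replicate 2, from 44 and 73 counts. At this depth the Egr3 intervals of -1.45 to 0.49 and -0.42 to 0.71 could not show a change smaller than about their width. Ier2 (ENSMUSG00000053560, chr8:84661331-84662852), an immediate early nuclear protein for which the files give no DNA-binding family, was at 18.9 and 18.2 CPM in replicate 1 and at 21.9 and 22.2 CPM in replicate 2. The blocked log2 fold changes were 0.14 (SE 0.11) for Egr1, -0.13 (SE 0.40) for Egr3 and -0.01 (SE 0.075) for Ier2.

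**Figure D3:**
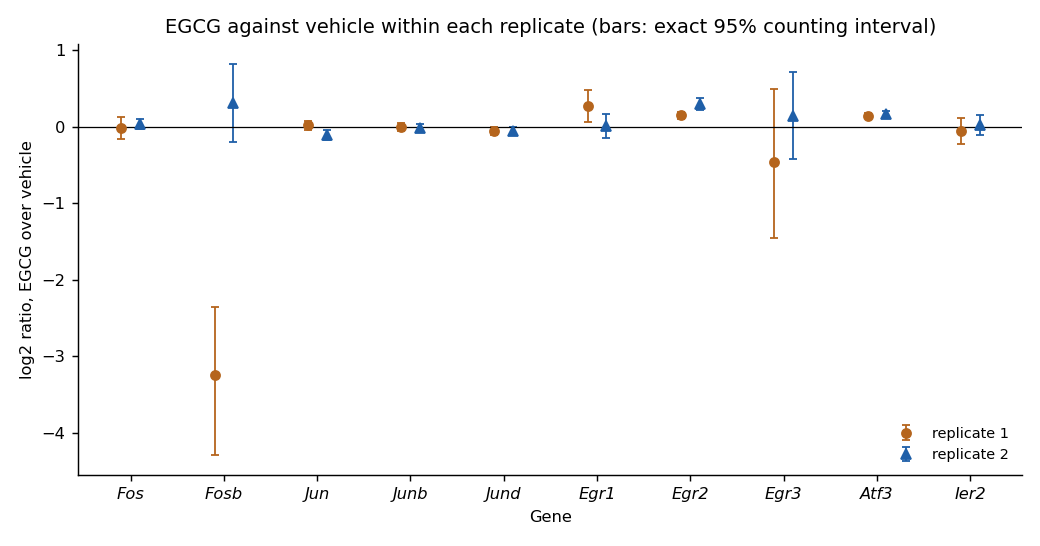
Log2 ratio of EGCG to vehicle for each of the 10 genes within replicate 1 (brown circles) and replicate 2 (blue triangles); bars are exact 95% intervals for counting error and the line marks no difference. Egr2 and Atf3 lie above the line in both replicates, at 0.15 to 0.30, while Fosb lies at -3.25 in replicate 1 and 0.31 in replicate 2.

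The differences of the members with EGCG were set beside those of all genes tested. The absolute log2 difference had a median of 0.10 in replicate 1 and 0.08 in replicate 2 for the members, and 0.12 and 0.10 for all genes tested. Higher with EGCG in both replicates were 3 of the 10 (Egr1, Egr2 and Atf3), or 30%, against 29.9% of all genes. Lower in both was 1 (Jund), or 10%, against 20.6%. The other 6 differed in sign between the replicates, or 60%, against 49.0%. Within 0.25 on the log2 scale in both replicates were 6 members, or 60%, against 65.1%. With 2 libraries a group an exact permutation test cannot give a two-sided p below 0.333, and the fits across all genes were used for that reason.

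The low Fosb value in the EGCG library of replicate 1 stood beside low values of the stromal cell markers in the same library. Col1a1, the main fibrillar collagen chain, was at 121 CPM in the vehicle and 0.125 CPM (4 counts) in the EGCG library of replicate 1, and at 36.7 and 37.0 CPM in replicate 2. Eln, elastin, had 1088 counts in the vehicle library of replicate 1. It had 1, 3 and 5 counts in the EGCG library of replicate 1 and the vehicle and EGCG libraries of replicate 2. For Eln the vehicle library of replicate 1 was therefore the one apart. Lum had 70 counts in the vehicle library of replicate 1 and none in its EGCG library, where 0 counts allow a level of up to 0.0936 CPM (3 counts, counting error only). Postn did not share this, at 253 and 254 CPM in replicate 1. Ccn1 and Ccn2, immediate early genes that encode matricellular proteins, were at 5.73 and 21.1 CPM in the vehicle and at 0.125 and 0.437 CPM in the EGCG library of replicate 1. In replicate 2 they were at 3.79 and 7.83 CPM in the vehicle and 3.46 and 11.2 CPM in the EGCG library. They come from a list of 31 other immediate early genes, in which genes off the stromal list fell there too. Nr4a3 had 42 and 11 counts in replicate 1 and 90 and 153 in replicate 2. Ptgs2 had 441 and 180 counts, then 1797 and 2784. Over the 31 the median log2 difference with EGCG was -0.09 in replicate 1 and -0.03 in replicate 2. The part of the stromal and astrocyte markers in the Fosb values was not tested. Among the other 9 members the farthest log2 ratio from 0 in replicate 1 was that of Egr3, at -0.46, from few counts.

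**Figure D4:**
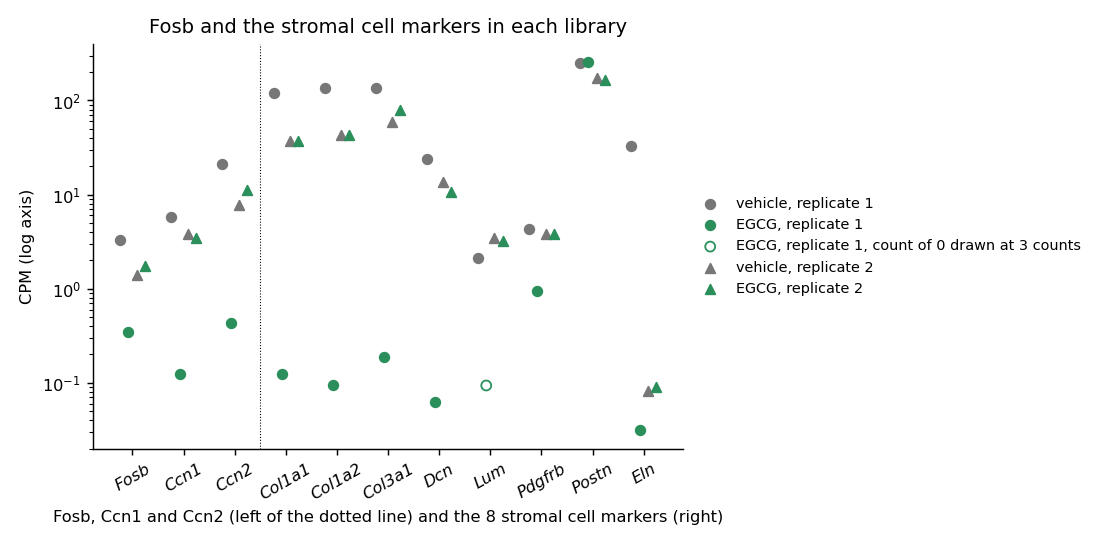
CPM (log axis) of Fosb, Ccn1 and Ccn2, left of the dotted line, and of the 8 stromal cell markers, right of it, in the 4 libraries; grey marks vehicle, green EGCG, circles replicate 1, triangles replicate 2, and the open circle a count of 0 drawn at 3 counts. The EGCG library of replicate 1 is lowest for Fosb, Ccn1, Ccn2 and 7 of the 8 markers, but not for Postn.

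The replicate number separated the members far more than EGCG did. The libraries of replicates 1 and 2 did not overlap in CPM for 9 of the 10 members, all but Fosb, and did not overlap for 76.5% of all genes tested. In the edgeR fit with treatment and replicate number, 8 of the 10 passed an adjusted p of 0.1 for the replicate term, 4 higher and 4 lower in replicate 2. The background is large, as 53.5% of all genes tested passed, 27.7% higher and 25.7% lower. Each replicate number stands for 1 deposited table with both treatments in it, so cultures, preparation and table cannot be told apart in this difference. Cell type markers differed too. All 10 microglia markers passed the replicate term, 6 higher and 4 lower in replicate 2. Of 3 endothelial markers tested, 1 was higher, Pecam1, and 2 were lower. Pecam1 had 2 and 3 counts in replicate 1 and 580 and 741 in replicate 2. Of 3 neuron markers tested, 1 was lower, Snap25, with 566 and 524 counts against 19 and 36. The part of these markers in the members' values was not tested.

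Fos and Egr2 moved furthest and in opposite directions. Fos was 4.01-fold higher in replicate 2 (log2 difference 2.00, SE 0.062, adjusted p = 0.000131), by 1.97 among vehicle and by 2.03 among EGCG libraries. Egr2 was 3.68-fold lower in replicate 2 (-1.88, SE 0.060, adjusted p = 0.000131), by -1.95 between the vehicle and -1.80 between the EGCG libraries. A log2 difference over 1 in both treatments was seen in these 2 of the 10, or 20%, and in 12.04% of all genes tested. Of the promoter windows printed for them, that of Egr2 holds the CArG box and that of Fos the TATA box, a description of letters only. It covers the 250 bases of each window and shows no absence of either motif further upstream. The direction between replicates was the same in both treatments for 9 of the 10, or 90%, against 82.9% of all genes tested. Fosb was the exception, lower in replicate 2 among the vehicle libraries (-1.20) and higher among the EGCG libraries (2.17).

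The remaining members moved less. Jun fell by 0.43 (SE 0.058, adjusted p = 0.00332), Atf3 by 0.41 (SE 0.051, adjusted p = 0.00267) and Jund by 0.29 (SE 0.047, adjusted p = 0.0067) on the log2 scale in replicate 2 by edgeR. Egr1 was higher by 0.36 (SE 0.11, adjusted p = 0.0446), Ier2 by 0.25 (SE 0.075, adjusted p = 0.0466) and Egr3 by 1.01 (SE 0.40, adjusted p = 0.0962). Junb did not pass, at -0.03 (SE 0.047, adjusted p = 0.587), and neither did Fosb, at 0.36 (SE 0.87, adjusted p = 0.768). The calls of Egr1, Egr3 and Ier2 were lost with DESeq2, with adjusted p values of 0.248, 0.371 and 0.358, and the calls of Fos, Egr2, Jun, Atf3 and Jund were kept. The same 3 calls were lost without either library of replicate 2, where edgeR gave adjusted p values of 0.105 to 0.198. Egr1 was also not called without the vehicle library of replicate 1 (adjusted p = 0.145 by edgeR) nor Egr3 without its EGCG library (adjusted p = 0.138) or with DESeq2's size factors (adjusted p = 0.102). Fosb was called in opposite directions, at 2.18 without the vehicle library of replicate 1 (adjusted p = 0.002 by edgeR) and at -1.05 without its EGCG library (adjusted p = 0.00707).

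**Figure D5:**
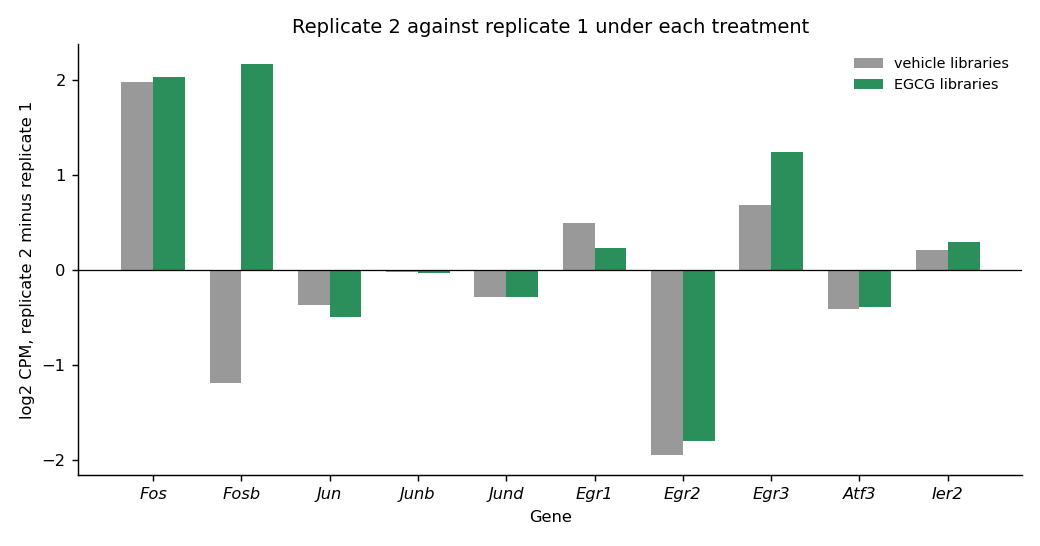
Bars from 0 of the difference in log2 CPM, replicate 2 minus replicate 1, of each of the 10 genes, in grey for the vehicle libraries and in green for the EGCG libraries. Fos rises by 1.97 and 2.03 and Egr2 lies at -1.95 and -1.80, while Fosb takes opposite signs, -1.20 and 2.17.

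The wider pathway was read from lists of the genes around the members. Of their 97 tested genes, none passed an unadjusted p of 0.05 in the fit on treatment alone. With the block 13 did in edgeR, 9 higher and 4 lower with EGCG, where 2.12% and 1.09% of all genes tested passed in these directions. None passed an adjusted p of 0.1 in that fit. Among 12 other genes of AP-1 dimers, such as Atf4 and Mafg, the most expressed of them per length, Fosl2 passed, lower with EGCG by a log2 fold change of -0.23 (SE 0.068, unadjusted p = 0.0173 by edgeR with the block, adjusted p = 0.995). It was at 63.9 and 51.0 CPM in replicate 1 and at 99.3 and 89.6 CPM in replicate 2. Of 31 other immediate early genes, Plk2, a kinase of the stress response, was higher (0.15) and Trib1, a pseudokinase, and Socs3, the feedback inhibitor of cytokine receptors, were lower (-0.19 and -0.39) at that threshold. Those with the highest levels, the survival gene Mcl1 and the small GTPase gene Rhob, were at 0.03 and 0.06. The EGR corepressors Nab1 and Nab2 did not pass, at 0.02 and -0.04. None of the 8 SRF, TCF and CREB factors that act on the members' promoters passed, with a median of -0.05 (Elk3 -0.07 and Mrtfa -0.04), nor did any of the 7 heat shock genes, with a median of 0.03 (Hspa8 0.03 and Hsp90aa1 0.06).

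Upstream, 1 of 14 genes of the MAP kinase cascade passed with the block, Mapkapk2, the p38 target kinase that stabilises AU-rich mRNAs, at 0.15 (264 and 306 CPM in replicate 1, 290 and 310 CPM in replicate 2), while Mapk3, the ERK1 gene, was at 0.02. Of 9 feedback inhibitors of that cascade, Spred1 passed, at 0.14 (156 and 174 CPM in replicate 1, 191 and 207 CPM in replicate 2), while Dusp6, the ERK phosphatase, was at 0.02. Downstream, 7 of 16 genes known as AP-1 or EGR targets passed, 6 of them higher and 1 lower (2.12% and 1.09% of all genes tested). These were Plau and Plaur, urokinase and its receptor (0.31 and 0.14), the gelatinase Mmp9 (0.50), the chemokine Ccl2 (0.35), Tnf (0.21) and Ccnd1 (0.21). Timp1, an inhibitor of metalloproteinases, was lower, at -2.10, but was at 32.8 and 1.93 CPM in replicate 1 and 16.0 and 10.7 CPM in replicate 2, the same libraries in which Fosb and the stromal markers were apart. The target with the highest level, Spp1, did not share a direction, at 33458 and 29787 CPM in replicate 1 and 7919 and 10418 CPM in replicate 2. Hmox1, heme oxygenase, was at -0.05. The metalloproteinase Mmp3 did not pass, at 5.67 and 0.0312 CPM in replicate 1 and 22.5 and 16.1 CPM in replicate 2. Over the 16 targets the median log2 difference with EGCG was -0.03 in replicate 1 and 0.15 in replicate 2. All 13 genes had an adjusted p of 0.995 with the block, and the lists were drawn up with earlier results of these libraries known, so their counts are no independent evidence of a direction.

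Between replicates, the lists moved as unevenly as the members. Of the 31 other immediate early genes, 14 were higher and 7 lower in replicate 2 at an adjusted p of 0.1. Socs3 was higher by 1.90, with 25.8 and 17.4 CPM in replicate 1 and 85.7 and 72.9 CPM in replicate 2. Rhob was lower by 0.92 on the log2 scale, with 524 and 521 CPM in replicate 1 and 264 and 289 CPM in replicate 2. Of the 12 other AP-1 dimer genes 5 were higher (Atf2, Atf7, Jdp2, Fosl2 and Batf) and 4 lower (Batf2, Maff, Fosl1 and Mafk). These 9 were named after their values were seen. Of the corepressors, Nab1 was higher by 0.65 and Nab2 lower by 0.38. The share called was 62.5% of the SRF, TCF and CREB factors, 42.9% of the MAP kinase cascade, 77.8% of its feedback inhibitors, 75% of the targets and 85.7% of the heat shock genes, beside the 53.5% of all genes.

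The mean profile of the members, each centred on its own log2 CPM, was 0.10 and -0.20 in the vehicle and EGCG libraries of replicate 1 and 0.01 and 0.09 in those of replicate 2, its low point set by Fosb. The genes whose centred profiles lay nearest to it over the 4 libraries, among 11610 with at least 10 counts in each, were Pigo, Rbmx2 and Mphosph9, at Euclidean distances of 0.0468, 0.0492 and 0.0501 log2 units. Pigo was at 15.2 and 12.6 CPM in replicate 1 and at 14.7 and 15.8 CPM in replicate 2. With 4 libraries the likeness is a description of these values.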

How the data were processed

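RNA of 4 microglia libraries was sequenced by the study after poly(A) selection and directional library preparation. The authors deposited raw counts per gene, whole reads without normalisation, in 1 table per replicate, aligned with HISAT2 to GRCm38.p6 per the labels. The counting program and its use of strand are not given in the sources used here. Both tables were joined by Ensembl identifier, leaving out loci without one (697 and 329). Columns were given their replicate number from the study's supplementary submission sheet.

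The edgeR 4.0.16 functions for TMM scaling and quasi-likelihood fits (glmQLFit, glmQLFTest), under R 4.3.3, were applied with treatment as the term. The study describes its design as the difference between EGCG and vehicle and mentions no replicate term. Whether its fit held such a term is not stated. Here DESeq2 gave 24 genes past an unadjusted p of 0.05 and 1 past an adjusted p of 0.1 on treatment alone. With the replicate number as a block it gave 153 and 7. The numbers of genes the study reports at these thresholds lie nearer to the fit with the block. Genes tested were protein-coding and reached a sum of 10 counts. Calls used an adjusted p of 0.1 or an unadjusted p of 0.05. Log2 CPM used a prior count of 2, and RPKM the gene length in the deposited tables. Ratios within a replicate have exact 95% binomial intervals, and intervals and floors cover counting error only, since reads were not counted by molecule. The replicate number pairs the samples, as the submission sheet puts both samples of a number in 1 table. The differences between replicates 2 and 1 in the vehicle and in the EGCG libraries correlated at r = 0.64 across 13811 genes, which are not independent, and the differences between EGCG and vehicle in replicates 1 and 2 at r = -0.05. Alternatives were the replicate block, DESeq2 1.42.0, other filters and size factors, all biotypes, and each library left out. The fits were tested on simulated counts. Those for the fit on treatment alone held no difference between replicates, so they do not show its power in these libraries. Promoter windows are from RefSeq (GRCm38.p6) and untranslated regions from GENCODE vM21, longest coding transcript.

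The members and lists were chosen with earlier results of these data known. The text names the 10 members, in each other list the genes with an unadjusted p under 0.05 in the fit without or with the block and, outside the cell type markers, the 2 highest per length, and the 3 genes nearest to the mean profile. Among the cell type markers, Trem2, Cdh5 and Eln passed that p in edgeR with the block (unadjusted p = 0.0449, 0.00584 and 0.00479). Their log2 fold changes were 0.15, -1.75 and -7.04, and the adjusted p was 0.995 for each. Other named genes were chosen after their values were seen.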

Additional observations from a re-analysis of the deposited data

How the results depend on the processing

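With the replicate block the number of members past an unadjusted p of 0.05 went from 0 to 2 in edgeR and to 2 in DESeq2, and that of genes of the pathway lists from 0 to 13. Over all genes the count of 16 became 444 with the block, 153 in DESeq2 with the block, 3 with at least 10 counts in every library, 6 with edgeR's filterByExpr and 35 with all biotypes. The count at an adjusted p of 0.1 went from 0 to 1 with the block, 1 in DESeq2 and 7 in DESeq2 with the block. The block changed no call at an adjusted p of 0.1 among the members. Leaving out each library in turn, where the lone sample is assumed to vary like the other group, gave 8 to 131 genes past an unadjusted p of 0.05 and no member. The 8 called members for the replicate term became 5 in DESeq2 and 5 to 8 with a library left out, where replicate number alone was fitted because treatment left no residual degrees of freedom. The cause of these shifts was not tested.

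Leaving out a library turned the sign of the log2 fold change for treatment in 9 members, none of them called, with ranges of -1.35 to 1.32 for Fos, -0.31 to 0.16 for Jun, -0.0364 to 0.0109 for Junb, -0.21 to 0.0999 for Jund, -0.0910 to 0.38 for Egr1, -0.99 to 1.47 for Egr2, -0.89 to 0.45 for Egr3, -0.0569 to 0.38 for Atf3 and -0.19 to 0.12 for Ier2. For the replicate term the range of -1.05 to 2.18 was that of Fosb, called only where a library of replicate 1 was left out. The treatment value of Fosb kept its sign, at -2.78 to -0.42. The replicate term of Fosb was -0.21 with replicate number alone. A library left out unbalances the replicates between the groups. The depth limits Egr3 and Fosb, with 11 to 107 counts a library.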
